A study of Homo sapiens with 9 samples.

Results

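Downstream-of-gene regions are stretches of RNA that continue past the annotated end of a gene, and the regions described here are those named after a noncoding host. A region was a member when it lay outside chromosome 19 and any of its names began with MIR, SNOR, SCARNA, RNU, LINC, LOC or SNHG, or ended in -AS and a number. The authors' deposited table of KO against WT held 347 such regions of 2541, of which 186 carried only noncoding names and 161 shared the region with another name. Their deposited table of addback against KO held 334 of 2396 regions, 182 with only noncoding names and 152 shared. All 2396 stood at the same coordinates in both deposited tables. The names are only partly what they say. RefSeq calls a name protein-coding in 5 of the 186 regions, and 9 of the 161 shared regions had no protein-coding name, among them those of GAS5, DANCR and ZFAS1, which are noncoding themselves. In 158 of the 161 shared regions the region began at the end of the other gene.

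RNA with a poly(A) tail was sequenced from HEK293 cells, a line derived from human embryonic kidney, in 9 libraries. The groups were cells whose UBE3D gene was knocked out with CRISPR/Cas9 (KO, n = 3), KO cells given UBE3D again (addback, n = 3) and wild-type cells (WT, n = 3). The protein UBE3D is a ubiquitin ligase studied here beside CPSF3 (CPSF73), the nuclease that cuts nascent RNA at the poly(A) site. The labels call the samples pooled and name neither separate cultures nor whether the KO line is 1 clone. P-values therefore measure only the spread between these libraries, which may be technical.

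At most protein-coding and long noncoding genes, the cleavage complex recognises a poly(A) signal such as AATAAA and CPSF3 cuts the RNA. The exonuclease XRN2 then degrades the RNA still attached to the polymerase until transcription stops. Where cutting is late or absent, the polymerase runs on and leaves a downstream-of-gene transcript. Many small RNAs have no poly(A) site of their own: a microRNA is cut out of a longer transcript as a hairpin by Drosha, and most snoRNAs are trimmed out of introns of host genes. A poly(A) library therefore does not hold mature microRNAs or snoRNAs, and a count at such a gene comes from a longer RNA that crosses it.

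The microRNAs whose regions moved most, or were the most abundant, are shown with their mature sequences from RefSeq (GRCh38.p14), 5′ to 3′; capitals mark the seed, bases 2 to 8, which pairs with target RNAs. RefSeq held 43 of the 44 MIR-named hosts of the regions with only noncoding names. The seed AGAGGAA is common to hsa-miR-3916 and hsa-miR-6859-5p, and the others listed have seeds of their own.
hsa-miR-1247-5p: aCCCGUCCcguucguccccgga
hsa-miR-4492: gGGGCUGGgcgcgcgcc
hsa-miR-6859-5p: gAGAGGAAcaugggcucaggaca
hsa-miR-3916: aAGAGGAAgaaauggcugguucucag
hsa-miR-3939: uACGCGCAgaccacaggauguc
hsa-miR-4740-3p: gCCCGAGAggauccgucccugc
hsa-miR-4712-5p: uCCAGUACaggucucucauuuc

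The ends of 6 long noncoding hosts show what lies just before a region begins. They are the last 60 bases of a GENCODE v29 transcript ending within 10 bases of the region, on the transcript's strand, and capitals mark a poly(A) signal (AATAAA or ATTAAA) found within the last 40 bases. They are examples chosen after their values were seen: none of the first 4 holds either signal in the searched stretch, and the last 2 hold one each. The LINC00460 end does hold AATAAA directly before the searched stretch, where it is left unmarked, so its lack of a signal rests on that limit. The annotated end before the LOC729083 region, among the highest in KO, also holds AATAAA, and the LINC00674 region is itself among the highest in addback against KO. The transcript that ends before the LINC00674 region carries another gene's name in GENCODE.
LINC00460 (chr13:106377732-106377791, plus strand): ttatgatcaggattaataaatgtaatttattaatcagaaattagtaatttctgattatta
KRTAP5-AS1 (chr11:1599125-1599184, plus strand): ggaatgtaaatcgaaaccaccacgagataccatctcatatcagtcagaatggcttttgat
RBM26-AS1 (chr13:79424269-79424328, plus strand): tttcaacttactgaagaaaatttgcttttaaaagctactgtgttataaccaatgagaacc
ADAMTS19-AS1 (chr5:129459559-129459618, minus strand): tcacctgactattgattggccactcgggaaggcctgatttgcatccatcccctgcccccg
NIPBL-AS1 (chr5:36871364-36871423, minus strand): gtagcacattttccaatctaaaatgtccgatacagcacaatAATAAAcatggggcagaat
LINC00674 (chr17:68135876-68135935, plus strand): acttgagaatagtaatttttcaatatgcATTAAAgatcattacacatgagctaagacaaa

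Libraries held between 23088295 and 37508780 counts over genes. All 9 HEK293 markers, such as the insulin receptor substrate IRS4, were expressed in every library. Gene levels are given in CPM, a gene's counts scaled to a common library total and not to gene length. UBE3D RNA was 15.2, 18.7 and 16.7 CPM in KO libraries, 3473, 2980 and 2425 CPM in addback libraries, and 20.6, 18.5 and 22.4 CPM in WT libraries. The addback lay far above WT, and the transcript remained in KO. Its log2 fold in KO against WT was -0.28 (edgeR adjusted p = 0.142; exact permutation p = 0.2, with 0.1 the smallest possible). A second feature sets KO apart. The 494 odorant receptor and keratin-associated protein genes were taken as a list of genes mostly restricted to other tissues. They held 11.2, 11.0 and 10.8 CPM of the plain library total in KO libraries, against 369.9, 1531 and 1582 in addback libraries and 390.3, 1202 and 1876 in WT libraries. Markers of 3 other tissues were also lower in KO in their summed levels. Those of liver (ALB, APOA1, TTR) summed to 0.239 to 0.810 CPM in KO, 3.91 to 11.9 CPM in addback and 3.55 to 25.7 CPM in WT, and those of endothelium (PECAM1, CDH5, VWF) to 1.14 to 1.85, 14.6 to 49.4 and 11.1 to 50.4 CPM. Those of muscle (MYH7, DES, ACTN2) summed to 10.8 to 12.5, 23.7 to 51.2 and 16.6 to 43.0 CPM. None of these 9 markers was at 0 in all 3 libraries of a group. Those of blood, over PTPRC, CD3E and HBB, summed to 30.3 to 36.7 CPM in KO, 38.7 to 52.8 CPM in addback and 34.1 to 70.0 CPM in WT, so KO and WT libraries overlapped there. The part of these reads in the region results was not tested, since the region tables give no values per library.

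In KO cells, regions with only noncoding names fell more often than they rose, while fewer of the regions that share another name fell than rose. Per the authors' deposited table, 30 of the 186 regions with only noncoding names were higher in KO than in WT at an adjusted p under 0.05 and 62 were lower, where 24.8% of all regions were called higher and 25.0% lower. Their share called in either direction, 92 of 186, lay near the 49.8% of all regions, so what differs in this description is the direction. Of the 161 shared regions, 42 were higher and 26 lower in the authors' deposited table. Their share called higher lay near that of all regions, so it is the fewer called lower that differ. The lean was clearest in those with a snoRNA name, while those with a microRNA name were called higher and lower in similar numbers, as given below. The median log2 fold in the authors' deposited table was -0.19 over the regions with only noncoding names, 0.08 over the shared regions and 0.00 over all regions. Most changes were small: by the authors' deposited table, 7 and 9 of the 186 were higher and lower by at least 1 on the log2 scale, against 13 and 4 of the 161. In these bulk libraries, fewer cells carrying a transcript and less of it per cell cannot be told apart.

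With UBE3D put back, nearly all called regions with only noncoding names were higher than in KO. The authors' deposited table of addback against KO called 52 of 182 higher and 6 lower, where 18.6% of all its regions were called higher, 15.5% lower and 34.1% in either direction. Of the 152 shared regions, 26 were called higher and 28 lower in that deposited table of the authors. Medians in the authors' deposited table were 0.14 for the regions with only noncoding names, -0.09 for the shared regions and 0.00 for all regions. Both comparisons use the same KO libraries, so their opposite directions are not independent of each other. The deposited folds are also on different scales, since those of addback against KO behaved as shrunken values (fold over standard error matched the p-value within 1% in 0.71% of regions) and those of KO against WT did not (100%).

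**Figure D1:**
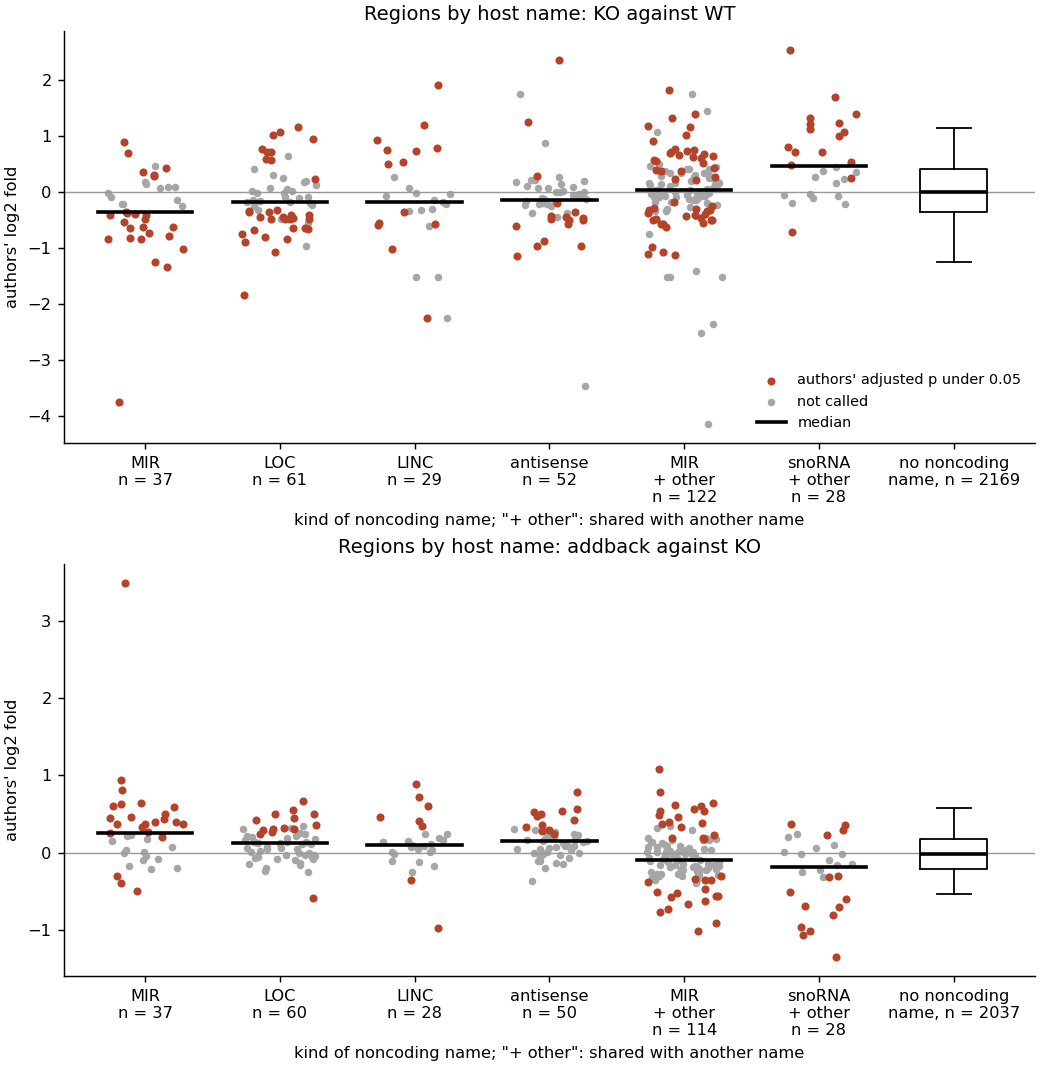
The authors' log2 fold of each member region (points, vertical axis) by the kind of noncoding name, KO against WT above and addback against KO below; red points passed an adjusted p under 0.05, bars are medians, and the box gives the 5th, 25th, 50th, 75th and 95th percentiles of regions with no noncoding name. MIR-named regions have a median of -0.36 in KO against WT and 0.26 in addback against KO, while snoRNA names shared with another gene have 0.47 and -0.18.

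Medians lay below 0 in KO for regions named for microRNAs, LOC genes, LINC genes and antisense RNAs. Of 37 MIR regions with only noncoding names, 6 were higher and 19 lower in KO than in WT in the authors' deposited table (median -0.36). In the authors' deposited table of addback against KO, 20 were higher and 3 lower (median 0.26). LOC regions had 10 higher and 23 lower of 61 in KO against WT by the authors' deposited table (median -0.18), and 13 higher and 1 lower of 60 in addback against KO. Antisense regions, named after the gene they oppose, had 3 higher and 14 lower of 52 in the authors' deposited table of KO against WT (median -0.14), and 12 higher and 0 lower of 50 in that of addback against KO. The share of antisense regions called lower is thus near that of all regions, and it is the few called higher that differ. LINC regions had 8 higher and 6 lower of 29 in the authors' deposited table of KO against WT (median -0.19, with 19 folds below 0) and 6 higher and 2 lower of 28 in that of addback against KO. The 3 SNHG regions, behind genes whose introns release snoRNAs, had 2 higher and 0 lower in KO in the authors' deposited table: SNHG5 by 0.61 and SNHG17 by 0.59.

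Among microRNA hosts, the region behind MIR1247 changed most. This 4.61 kb region (chr14:101555676-101560287, minus strand, hg38) lies inside DIO3OS, the antisense RNA of the thyroid hormone deiodinase gene DIO3. It was 13.4-fold lower in KO than in WT in the authors' deposited table (log2 fold -3.75 ± 0.82 SE, adjusted p = 2.46e-05) and 11.2-fold higher with UBE3D put back (3.48 ± 1.06, adjusted p = 2.7e-05). The reads of the gene around it were few and uneven: DIO3OS had 3, 1 and 2 counts in KO libraries, 3, 32 and 11 in addback libraries and 5, 31 and 3 in WT libraries. A single library held most of the WT counts, and the groups overlapped. By edgeR DIO3OS was -2.21 in KO against WT (adjusted p = 0.0775) and 2.55 in addback against KO (adjusted p = 0.047). DIO3OS passed the filter on low counts through addback and WT libraries alone, so these p-values are descriptions. MIR4492 (chr11:118910788-118939587, plus strand) was 2.53-fold lower in KO in the authors' deposited table (-1.34 ± 0.16, adjusted p = 1.79e-16) and 1.51-fold higher in addback against KO. The region behind MIR6859-1 to MIR6859-4 (chr1:155292-187891, minus strand) was -1.25 ± 0.14 in KO against WT and 0.94 ± 0.12 in addback against KO in the authors' deposited table. These 4 genes encode the same microRNA in near-identical copies near chromosome ends, so their reads could belong to any copy. Of the names in the tables, 4 stood at 2 places each with identical values, which covers 8 regions.

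The most abundant microRNA-named regions changed by less than 2-fold. MIR3939 had a base mean of 3864 (the authors' mean normalised count, over libraries that the headers do not name). The MIR3939 region was -0.84 ± 0.06 in KO against WT and 0.21 ± 0.06 in addback against KO in the authors' deposited table. MIR4740 (base mean 2933) was -0.85 ± 0.08 and 0.18 ± 0.08 in the authors' deposited table, and the second value missed the threshold (adjusted p = 0.0566). MIR3916 (base mean 2336), which shares the seed of miR-6859-5p, was -0.63 ± 0.09 and 0.40 ± 0.09 in the authors' deposited table. MIR4712 (base mean 2955), inside the antisense RNA GABPB1-AS1, went the other way: the authors' deposited table gave 0.30 ± 0.06 in KO against WT and -0.30 ± 0.06 in addback against KO; GABPB1-AS1 itself was 0.95 and -0.78 by edgeR (adjusted p = 0.000497 in KO against WT). The region behind MIR34A, a microRNA gene known as a p53 target, was higher in both deposited tables of the authors, 0.43 in KO against WT (adjusted p = 0.0389) and 0.64 in addback against KO.

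Of the long noncoding hosts, LINC01061 and LOC101928358 had the lowest region folds in KO, and KRTAP5-AS1 and LINC00460 the highest. LINC01061 (chr4:119322161-119405523, minus strand, 83.4 kb) was 4.74-fold lower in KO in the authors' deposited table (-2.25 ± 0.54, adjusted p = 0.00015) and 1.86-fold higher in addback against KO (0.90 ± 0.60). LOC101928358 (chrX:108738904-108747903, plus strand) was 3.58-fold lower in KO in the authors' deposited table (-1.84 ± 0.18, adjusted p = 9e-22), while its addback value of 0.31 ± 0.19 missed the threshold (adjusted p = 0.115). ADAMTS19-AS1 was -1.14 ± 0.25 in KO against WT and 0.78 ± 0.25 in addback against KO in the authors' deposited table.

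Regions that rose in KO did not all come back with UBE3D. KRTAP5-AS1 (chr11:1599185-1605784, plus strand), antisense to genes of hair keratin-associated proteins, was 5.10-fold higher in KO in the authors' deposited table (2.35 ± 0.35, adjusted p = 1.13e-10) and rose further in addback against KO (0.54 ± 0.25, adjusted p = 0.0137). LINC00460 (chr13:106377793-106388592, plus strand) was 3.75-fold higher in KO in the authors' deposited table (1.91 ± 0.28, adjusted p = 2.41e-10), with -0.11 ± 0.21 in addback against KO (adjusted p = 0.668). RBM26-AS1 and LOC729083 were alike in the authors' deposited table, with 1.24 ± 0.24 and 1.08 ± 0.27 in KO against WT beside -0.10 ± 0.20 and -0.06 ± 0.21 in addback against KO. LINC00176 and LOC90784 were higher in KO and lower again in addback. RefSeq lists LINC00176 as the protein-coding gene C20orf204, while LOC90784 was not matched there and its region begins at the annotated end of POLR1A, which codes for a subunit of RNA polymerase I. The authors' deposited table gave LINC00176 1.19 ± 0.28 and -0.97 ± 0.33, and LOC90784 1.15 ± 0.30 and -0.58 ± 0.30. LINC00674 (base mean 1017) was among the regions highest in addback against KO in the authors' deposited table, 0.72 ± 0.13, with -0.59 ± 0.13 in KO against WT.

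**Figure D2:**
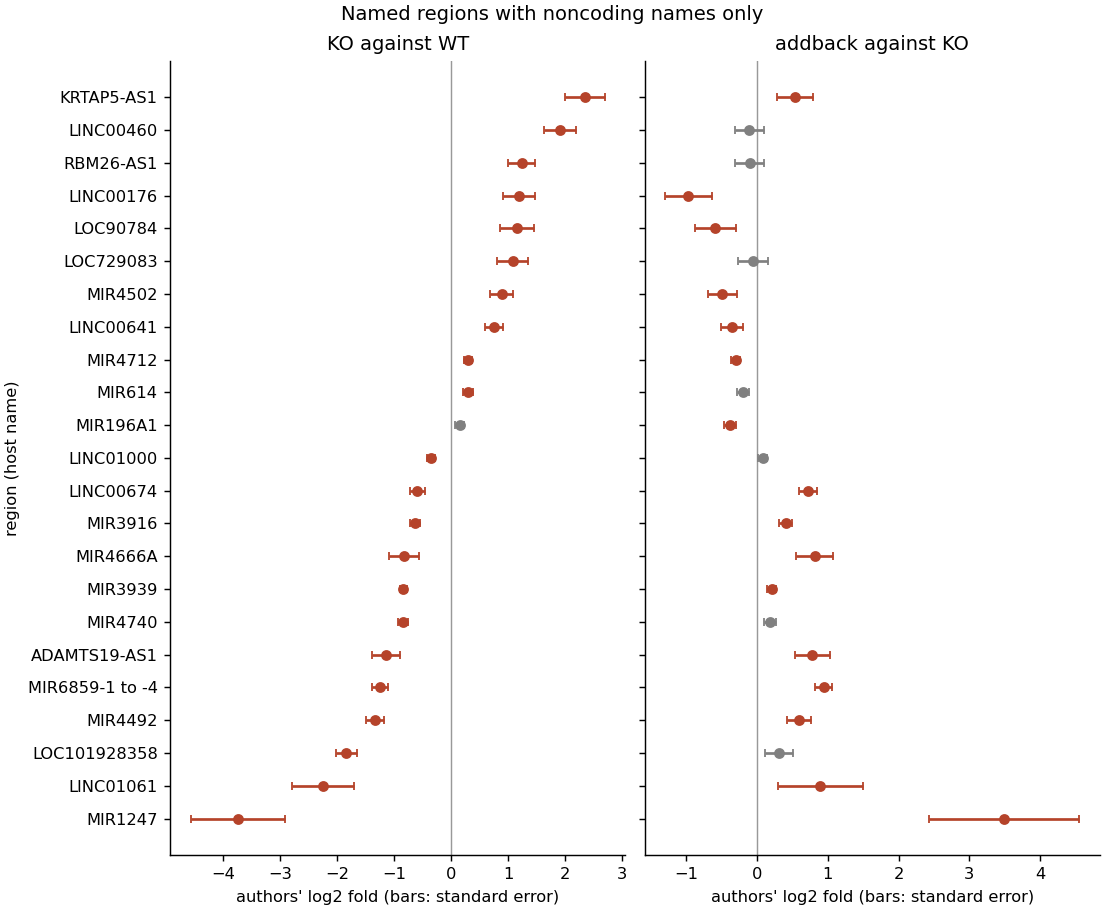
The authors' log2 folds (points, horizontal axis) with standard errors (bars) of the named regions with only noncoding names, KO against WT on the left and addback against KO on the right; red passed an adjusted p under 0.05. MIR1247 lies at -3.75 and 3.48, and KRTAP5-AS1 lies above 0 in both panels (2.35 and 0.54).

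Among shared regions, those that carry a snoRNA name had 15 of 28 higher and 1 lower in KO than in WT in the authors' deposited table (median 0.47). Of all regions, 24.8% were called higher and 25.0% lower there. The authors' deposited table of addback against KO had 4 of these higher and 11 lower (median -0.18), where 18.6% of all regions were called higher and 15.5% lower. The highest was behind RPL3, a protein of the large ribosomal subunit whose introns hold SNORD43, SNORD83A and SNORD83B (chr22:39292083-39312882, minus strand). This region was 5.80-fold higher in KO than in WT in the authors' deposited table (2.54 ± 0.13, adjusted p = 4.91e-86) and 2.54-fold lower in addback than in KO (-1.35 ± 0.13, adjusted p = 1.08e-28). RPL13 with SNORD68 was 1.08 ± 0.15 and -1.06 ± 0.18 in the authors' deposited table. WDR43, a ribosome biogenesis factor, with SNORD53 and SNORD92 was 1.12 ± 0.12 and -0.95 ± 0.14 in the authors' deposited table. AP1B1, a subunit of a clathrin adaptor, with MIR3653 and SNORD125 was 1.40 ± 0.12 and -1.01 ± 0.13 in the authors' deposited table, and CCNB1IP1 with SNORD126 was 1.69 ± 0.18 and -0.60 ± 0.18 in the authors' deposited table. An exception is RC3H2, the RNA-binding protein roquin-2, with SNORD90 (base mean 3702), which was -0.71 ± 0.06 in KO against WT and 0.23 ± 0.06 in addback against KO in the authors' deposited table.

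A snoRNA name goes together with a ribosomal protein gene in 9 of these 28 regions. In a split chosen after the values were seen, the authors' deposited table had 5 higher and 0 lower in KO among those 9, and 10 higher and 1 lower among the other 19. Among regions with a ribosomal protein name and no noncoding name, 11 of 15 were higher and 1 lower in KO in the authors' deposited table, and 0 of 14 were higher and 7 lower in addback against KO. The lean towards higher in KO was thus also present without a snoRNA name.

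Shared regions with a microRNA name were called higher and lower in similar numbers. Of 122, 27 were higher and 24 lower in KO in the authors' deposited table (median 0.04), and of 114, 18 were higher and 17 lower in addback against KO (median -0.08, with 46 folds above 0 and 68 below). The region of CBX5, the heterochromatin protein HP1 alpha, with MIR3198-2 was 3.51-fold higher in KO in the authors' deposited table (1.81 ± 0.19) and -0.56 ± 0.18 in addback against KO. NFE2L2, the oxidative stress factor NRF2, with MIR3128 was 2.17-fold lower in KO in the authors' deposited table (-1.12 ± 0.24) and 0.62 ± 0.24 in addback against KO. MIR103A1, in an intron of the coenzyme A synthesis gene PANK3, gave the region with the highest base mean, 9573, at -0.41 ± 0.05 and 0.19 ± 0.05 in the authors' deposited table. YY1, a zinc finger transcription factor, with MIR6764 (base mean 4044) was 0.11 ± 0.07 in KO against WT (adjusted p = 0.146) and -0.30 ± 0.07 in addback against KO in the authors' deposited table. WDR91, an endosome protein, with MIR6509 rose in both deposited tables of the authors, 0.37 ± 0.16 in KO against WT and 1.08 ± 0.17 in addback against KO.

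Regions with only noncoding names also differ in where they lie. Of the 186, 54 began inside another gene of the same strand. Of these 54, 9 were higher and 24 lower in KO in the authors' deposited table, and 21 of the 132 others were higher and 38 lower. No exon of another gene of the strand lay in 74 of the 186. Of these 74, 11 were higher and 20 lower in KO in the authors' deposited table (median -0.06). Their share called lower was near the 25.0% of all regions. Sequence that codes for protein on either strand lay in 13 of the 186, with 1 higher and 7 lower in the authors' deposited table, and among the 173 without it 29 were higher and 55 lower. The same feature was seen with a fall among the regions of all other hosts: of 247 with coding bases, 34 were higher and 109 lower in KO in the authors' deposited table, while of 1947 without them 525 were higher and 437 lower. All regions of the table were also put into 3 bins of equal size by base mean per kilobase. Among the regions with only noncoding names, the bin of the highest levels had 5 higher and 24 lower of 45 in the authors' deposited table, the middle bin 12 and 24 of 69, and the lowest bin 13 and 14 of 72. Among all regions of the authors' deposited table the same bins had 224 higher and 318 lower, 224 and 215, and 183 and 101.

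Noncoding hosts often lacked a poly(A) signal at the annotated end. The letters AATAAA or ATTAAA were looked for on the transcript strand within the last 40 bases of a transcript that ends at the region. Such a transcript was found for 114 of the 186 regions with only noncoding names. A signal stood in 32 of 66 long noncoding ends (48.5%) and in 2 of 37 ends of small RNA genes (5.41%), against 91 of 118 shared regions (77.1%) and 1125 of 1547 regions of all other hosts (72.7%). Among the regions of all other hosts, ends of a long noncoding transcript type had one in 73 of 115 (63.5%). The type is GENCODE's for the matched transcript, so such an end may belong to a coding host. Behind long noncoding ends with a signal, 3 of 32 regions were higher and 12 lower in KO in the authors' deposited table (median -0.28), and behind those without, 8 of 34 were higher and 6 lower (median 0.03). In addback against KO both had 8 higher and 0 lower in the authors' deposited table, of 31 with a signal and 34 without. Ends of that transcript type among the regions of all other hosts went the other way in KO in the authors' deposited table. Behind those with a signal 17 of 73 were higher and 18 lower (median -0.03), and behind those without 4 of 42 were higher and 21 lower (median -0.30). Behind small RNA ends without a signal, 7 of 35 were higher and 17 lower in the authors' deposited table. The 72 regions with no such transcript had 7 higher and 26 lower in the authors' deposited table (median -0.21). Matching letters are a description of annotated ends and show nothing of where cleavage took place.

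The host genes themselves could be tested per library. The count table held 410 noncoding-named hosts; 42 had no count in any library, and 258 passed the filter on low counts. By edgeR's quasi-likelihood test with Benjamini-Hochberg adjustment over 21994 genes, 35 of the 258 were higher and 40 lower in KO than in WT, where 24.2% of all tested genes were called higher and 37.4% lower (61.6% in either direction). In addback against KO 38 were higher and 21 lower, where 38.0% of all genes were higher and 21.8% lower (59.8% in either direction). In addback against WT 4 were higher and 0 lower (edgeR; 14 at an unadjusted p under 0.05, and 2 higher and 2 lower by DESeq2). Of all tested genes, 1.71% were higher and 0.868% lower there (2.57% in either direction). With the replicate number as a block, which pairs the addback and WT libraries, that last count was 7 higher and 2 lower. Under other scalings the split of hosts in KO against WT and in addback against KO changed in size but not in direction. With factors from genes whose estimated background is low, the median of all tested genes was -0.47 instead of -0.12 in KO against WT and 0.45 instead of 0.14 in addback against KO. With those factors the hosts split into 19 higher and 57 lower in KO against WT and into 49 higher and 10 lower in addback against KO, and with upper quartile factors into 26 and 49 and into 43 and 16. The split turned when each pair of groups was fitted alone, to 31 higher and 11 lower and to 9 and 32. DESeq2's test turned it in KO against WT, to 47 and 43. Of the 40 lower hosts in KO against WT, 31 were MIR-named, and of the 38 higher in addback against KO, 30. Some of those passed the filter through addback and WT libraries alone, so the direction is partly built in.

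Among long noncoding hosts few were lower in KO, and most were not called. Of 154 tested, 34 were higher and 4 lower in KO than in WT by edgeR (median 0.31), where 24.2% of all tested genes were higher and 37.4% lower. The counts were 25 and 9 with upper quartile factors, and 19 and 13 with low-background factors, where the median was -0.01. In addback against KO 2 were higher and 21 lower (median -0.24), 3 and 16 with upper quartile factors, and 8 and 10 with low-background factors (median 0.06). LINC00641, one of the most abundant, had 81.1, 82.0 and 78.3 CPM in KO libraries, 30.4, 27.1 and 26.0 CPM in addback libraries and 38.0, 29.7 and 28.9 CPM in WT libraries. The KO libraries all lay above the others, with a log2 fold of 1.32 ± 0.11 in KO against WT (edgeR adjusted p = 8.97e-05) and -1.53 ± 0.11 in addback against KO (adjusted p = 1.48e-05), and 0.99 and -1.23 with low-background factors. NIPBL-AS1, transcribed away from the cohesin loader gene NIPBL, was 0.64 ± 0.11 in KO against WT (edgeR adjusted p = 0.000735) and -0.68 ± 0.11 in addback against KO, and 0.31 and -0.38 with low-background factors. SNHG5 had 124, 117 and 112 CPM in KO libraries, 97.4, 88.4 and 73.3 CPM in addback libraries and 94.5, 69.7 and 66.4 CPM in WT libraries. Its rise in KO against WT was 0.62 ± 0.14 (edgeR adjusted p = 0.00368), and 0.29 with low-background factors. SNHG3 rose by 0.44 ± 0.13 (edgeR adjusted p = 0.0137), a call lost with low-background factors (0.12, adjusted p = 0.146). LINC01000 and OIP5-AS1, also among the most abundant, were -0.01 and 0.14 in KO against WT and did not pass the test (edgeR adjusted p = 0.955 and 0.373), but fell with low-background factors (-0.34 and -0.19, adjusted p = 0.00203 and 0.0339).

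Called in addback against WT were 4 hosts, LINC00460, LINC01411, SNHG17 and RAMP2-AS1. These calls rest on the fit and the libraries: the count was 0 when addback and WT were fitted alone, 1 without addback replicate 2 or without WT replicate 3, 2 without addback replicate 3 and 10 with low-background factors. LINC00460 had 3.07, 4.05 and 3.08 CPM in KO libraries, 3.61, 2.34 and 1.92 CPM in addback libraries, and 0.391, 0.550 and 0.379 CPM in WT libraries. It was higher in KO than in WT by 2.93 ± 0.51 (edgeR adjusted p = 0.000874) and in addback than in WT by 2.55 ± 0.51 (adjusted p = 0.0209), and KO and addback libraries overlapped. LINC01411 had 6.44, 9.56 and 6.07 CPM in KO libraries, 5.86, 5.15 and 5.54 CPM in addback libraries and 1.70, 1.13 and 0.986 CPM in WT libraries. Its folds were 2.53 ± 0.38 in KO against WT (edgeR adjusted p = 0.000496) and 2.11 ± 0.37 in addback against WT (adjusted p = 0.0114). SNHG17, a snoRNA host gene, had 42.9, 43.9 and 45.0 CPM in KO libraries, 44.5, 36.7 and 30.2 CPM in addback libraries and 25.5, 19.1 and 18.9 CPM in WT libraries. Its folds were 1.05 ± 0.15 in KO against WT (edgeR adjusted p = 0.000436) and 0.81 ± 0.15 in addback against WT (adjusted p = 0.0132). RAMP2-AS1 was at 1.13 ± 0.25 in addback against WT (edgeR adjusted p = 0.0402). LINC00176 did come back. It had 27.6, 27.7 and 27.2 CPM in KO libraries, 14.7, 11.7 and 9.79 CPM in addback libraries and 18.0, 14.3 and 12.6 CPM in WT libraries (0.88 ± 0.16 in KO against WT, edgeR adjusted p = 0.00114).

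**Figure D3:**
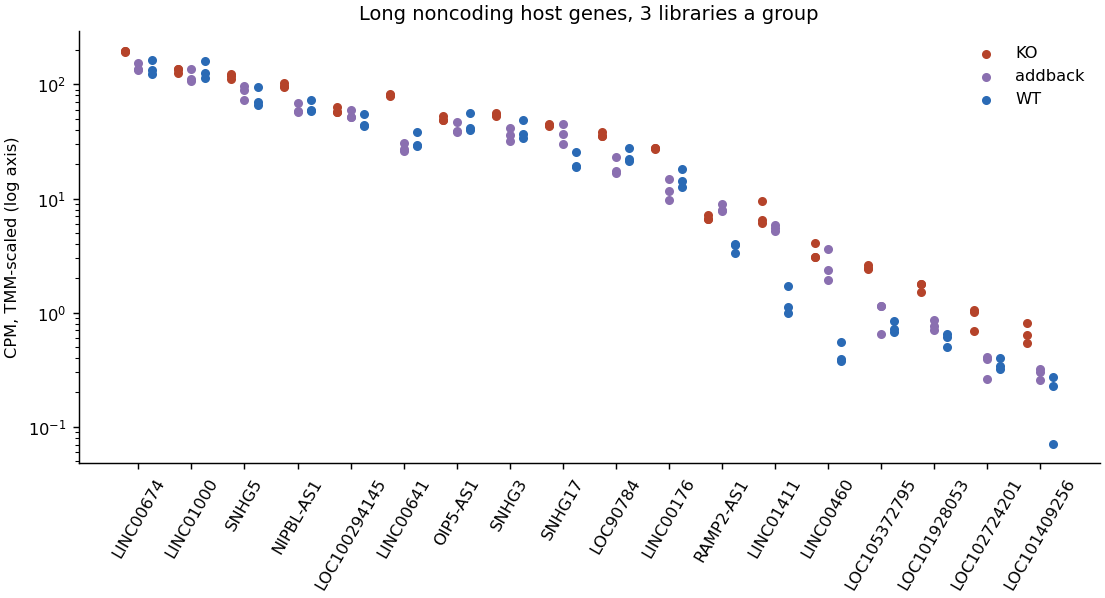
Levels of the named long noncoding host genes in each library (points; CPM scaled by TMM factors over all genes, log axis), with KO, addback and WT side by side. LINC00641 stands at 78.3 to 82.0 CPM in KO libraries and below 39 CPM in the others, while LINC00460 and LINC01411 are high in KO and addback libraries and low in WT; with low-background factors the same directions hold for these 3 genes in KO against WT.

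MIR-named host genes held few reads, and the fewest per library total in KO libraries. Together the 175 genes held 731, 834 and 1040 counts in KO libraries, 990, 1929 and 1844 in addback libraries and 1142, 2047 and 1821 in WT libraries. A count was present for 62, 66 and 71 of them in KO libraries, 121, 137 and 136 in addback libraries and 126, 136 and 137 in WT libraries. Of the 175, 56 passed the filter, which kept genes by their level in any group, so a gene could pass through addback and WT libraries alone. Among those, 1 was higher and 31 lower in KO than in WT by edgeR (median -2.38), and 30 were higher and 0 lower in addback than in KO (median 2.46; 1 lower at an unadjusted p under 0.05, and 28 higher and 2 lower by DESeq2). These counts are a description, since a gene that passed in that way had to differ. When KO and WT were fitted alone 23 passed, with 1 higher and 4 lower (median -0.07), and with addback and KO alone 20 passed, with 2 higher and 1 lower (median -0.13). In addback against WT 0 were called by edgeR or DESeq2, and 0 had an unadjusted p under 0.05 by either. The libraries with fewer such counts in addback and WT, replicate 1 of each, are also those with the fewest odorant receptor and keratin-associated counts, and the part of those reads in this result was not tested.

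Of the 56 tested MIR-named hosts, 18 had no count in any KO library. These passed the filter through addback and WT libraries alone, so a lower level in KO was built into their choice. The bounds given for them are descriptions. MIR562 had 0 counts in KO, 42 in addback and 60 in WT over the 3 libraries of each group, so WT exceeded KO at least 20.6-fold, taking a floor of 3 counts for the whole KO group. MIR550A3 had 0 counts in KO, 78 in addback and 47 in WT, so addback exceeded KO at least 26.2-fold. MIR34A had 0, 1 and 2 counts in KO libraries, 7, 19 and 17 in addback libraries and 6, 46 and 16 in WT libraries, a log2 fold of -4.04 in KO against WT (edgeR adjusted p = 0.00324). MIR34A also passed the filter through addback and WT libraries alone, so its p-value is a description too. The region behind it was 0.43 in the authors' deposited table. MIR614 is the 1 MIR-named host called higher in KO by the main edgeR fit. That count was 3 by DESeq2, 3 with the replicate block and 0 with low-background factors. MIR614 had 6.18, 9.05 and 6.22 CPM in KO libraries, 4.64, 4.42 and 3.68 CPM in addback libraries and 4.12, 3.23 and 3.18 CPM in WT libraries. Its log2 fold in KO against WT was 1.03 (edgeR adjusted p = 0.0174), and 0.69 with low-background factors (adjusted p = 0.071). It lies inside GPRC5A, a membrane receptor gene that was itself 0.61 higher (edgeR adjusted p = 0.000817). The snoRNA, scaRNA and snRNA hosts had 0 higher and 5 lower of 48 in KO against WT by edgeR (1 higher at an unadjusted p under 0.05, and 1 higher by DESeq2). Of all tested genes, 24.2% were higher and 37.4% lower there. In addback against KO 6 were higher and 0 lower (1 lower at an unadjusted p under 0.05, and 1 lower by DESeq2), where 38.0% of all tested genes were higher and 21.8% lower. Calls in both comparisons were thus rarer than over all genes. When KO and WT were fitted alone 34 of these hosts passed, with 0 higher and 3 lower. With addback and KO alone 36 passed, with 3 higher and 0 lower.

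**Figure D4:**
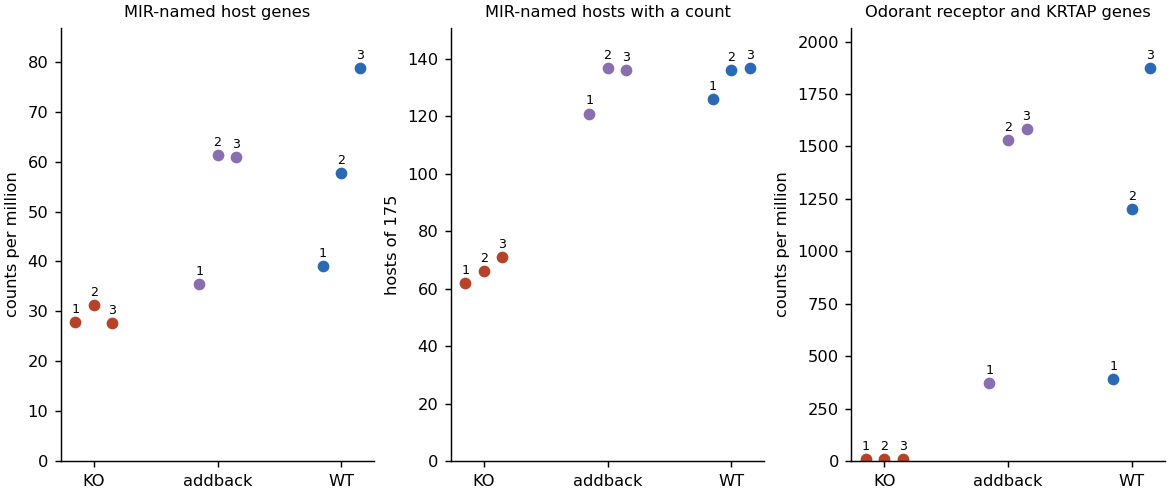
Each library (points numbered by replicate) by group, showing from left to right the CPM summed over 175 MIR-named host genes, how many of these had a count, and the CPM summed over 494 odorant receptor and keratin-associated protein genes. KO libraries are lowest in every panel, with 62 to 71 of 175 hosts having a count against 121 to 137 in addback and WT libraries.

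Regions and the genes they follow differed in their medians. Over 144 pairs of a region with only noncoding names and its tested long noncoding host, the median log2 fold in KO against WT was -0.18 for the region, in the authors' deposited table, and 0.31 for the host by edgeR, or -0.02 for the host with low-background factors. Of the 144 hosts of these pairs, 110 were not called. Of the 43 regions lower in KO in the authors' deposited table, 37 had a host that was not called, 4 a host that was higher and 2 a host that was lower by edgeR. Of the 22 higher regions, 14 had a host that was higher and 8 a host that was not called. In addback against KO, 120 of 140 hosts were not called, and 29 of the 32 higher regions in the authors' deposited table had a host that was not called, 3 a host that was lower and 0 a host that was higher by edgeR. Shares of uncalled hosts behind the lower regions in KO and the higher regions in addback thus lay near those of all pairs. The 2 measures were normalised separately, so a difference in level between them is a difference of scales as well.

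Single pairs show the contrast. LINC01061 as a gene had 20.1, 21.5 and 20.4 CPM in KO libraries, 19.5, 16.3 and 16.9 CPM in addback libraries and 18.6, 14.5 and 13.0 CPM in WT libraries. The gene's log2 fold in KO against WT was 0.43 (edgeR adjusted p = 0.0198; 0.10 with low-background factors, adjusted p = 0.354), while its region was -2.25 in the authors' deposited table. LINC00674 was 0.47 ± 0.11 as a gene in KO against WT (edgeR adjusted p = 0.00445), or 0.14 with low-background factors, and its region was -0.59 ± 0.13 in the authors' deposited table. LOC101928358 fell in both measures. The gene had 3.92, 2.71 and 2.78 CPM in KO libraries, 3.06, 2.23 and 2.87 CPM in addback libraries and 8.10, 5.65 and 6.03 CPM in WT libraries. The KO libraries lay below all WT libraries, by -1.07 on the log2 scale (edgeR adjusted p = 0.0248), and the region was -1.84 in the authors' deposited table. LINC00460 and LINC00176 rose in both measures in KO against WT, and RPL3 rose by 0.58 as a gene (edgeR adjusted p = 0.00699) where its region was 2.54 in the authors' deposited table. The use of strand in counting is not given in the sources used here, so reads of antisense hosts and of the genes they oppose may not be separable.

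**Figure D5:**
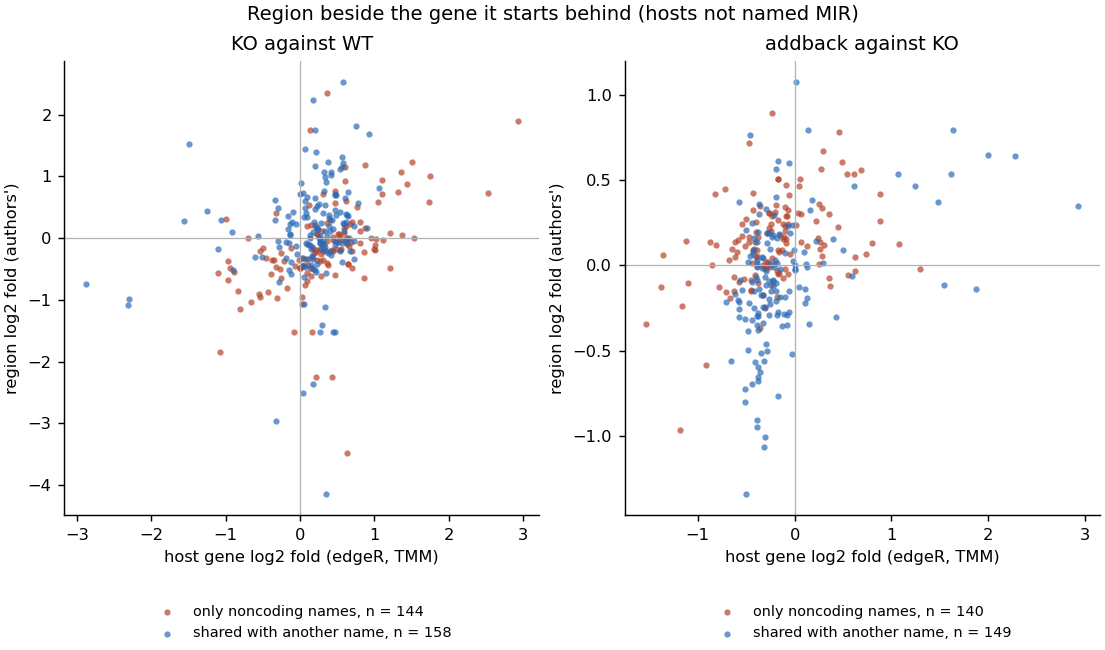
Each point is a region placed by the edgeR log2 fold of the gene it begins behind (horizontal axis, TMM factors) and the authors' log2 fold of the region (vertical axis), for hosts not named MIR; KO against WT is on the left and addback against KO on the right. In KO against WT the 144 pairs with only noncoding names have medians of 0.31 for hosts and -0.18 for regions, and the host median is -0.02 with low-background factors.

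The machinery of 3′ end formation and small RNA processing was followed through lists of its genes. Of all tested genes, 24.2% were higher and 37.4% lower in KO against WT by edgeR, and 38.0% and 21.8% in addback against KO. Of 17 cleavage and polyadenylation genes, 15 were higher and 0 lower in KO than in WT by edgeR, and 0 were higher and 14 lower in addback than in KO; with low-background factors 9 were higher and 2 lower, and 2 higher and 9 lower. CPSF3, the nuclease, was 0.48 ± 0.10 in KO against WT (edgeR adjusted p = 0.0016), and PCF11, which links the complex to the polymerase, was 0.68 ± 0.10 (adjusted p = 0.0005). Of 15 termination genes 12 were higher and 0 lower in KO by edgeR, but 5 higher and 3 lower with low-background factors. Of 17 genes of the nuclear exosome and its adaptors 12 were higher and 1 lower by edgeR, but 2 higher and 3 lower with those factors. Of 13 snoRNP protein genes, such as fibrillarin (FBL, 0.55 ± 0.15, edgeR adjusted p = 0.0093), 10 were higher and 0 lower in KO, and 8 higher and 1 lower with low-background factors. Of 8 genes of microRNA processing 5 were higher and 1 lower in KO by edgeR, among them DROSHA at 0.58 ± 0.11 (adjusted p = 0.0011), and 2 were higher and 3 lower with low-background factors. The folds of single genes in this paragraph use TMM factors over all genes. With low-background factors the list medians in KO against WT were smaller. They went from 0.48 to 0.14 for cleavage and polyadenylation, 0.40 to 0.07 for termination and 0.33 to -0.0007 for the exosome. For snoRNP proteins they went from 0.49 to 0.15, and for microRNA processing from 0.33 to -0.008.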

How the data were processed

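Per the labels, poly(A) RNA of 9 HEK293 libraries was sequenced (KO, addback and WT, n = 3 each). The submitters' processing notes name cutadapt 1.8.1, STAR 2.5.2b, DESeq2 and hg38 without roles; what counted the reads or called the regions is not given in the sources used here. Raw counts for 26485 genes were deposited, with exon length as another value (unit: other), and 2 region tables. Per the file headers, the authors' deposited region tables give base means (unit: signal), log2 folds with standard errors, a test statistic (unit: score) and raw and adjusted p-values. How they were normalised, and over which libraries, is not given there. They hold no values per library, so regions have no test beyond the authors'. Base means in the deposited table of KO against WT were at the median 1.97 times those of the other. The count columns marked KO.U were read as addback, because the deposited region table of that group names it KO with UBE3D and KO and WT have columns of their own. 0 sample columns went unused.

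Members were found by name, outside chromosome 19, which left out 25 matching regions of the KO against WT table; positions were set against GENCODE v29 on hg38 (region starts raised by 1 base), and names against RefSeq. Host genes were tested in R 4.3.3 with edgeR 4.0.16 (genes kept by filterByExpr, TMM, robust quasi-likelihood fit over all 9 libraries, adjusted p under 0.05), with DESeq2 1.42.0 as an alternative; steps were tested on simulated data. Low-background factors are TMM factors from 7884 genes whose estimated background, from 494 odorant receptor and keratin-associated genes, is small beside their level. Total counts of 23088295 to 37508780 per library limit the precision of hosts with few counts, and bounds cover counting error only. Replicates of a group differed by more than sampling noise. Same-numbered addback and WT libraries deviated together (correlations of 0.857, 0.567 and 0.724), so the blocked count stands beside that comparison.

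Regions named in the text are those with the highest and lowest folds among the called and the highest base means (6 of each for regions with only noncoding names, 4 of each for shared ones, per table), and hosts those with the highest mean CPM (8) or the largest folds per comparison; other names were chosen after their values were seen. Members, gene lists and tests were chosen with earlier results of these data known. Alternatives were other thresholds, level minimums, name rules, annotation filters, scalings, tests, filters and left-out replicates. The blood list is given for 3 of its genes, and the rest is not reported here.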

Additional observations from a re-analysis of the deposited data

How the results depend on the processing

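The median log2 fold of regions in KO against WT with only noncoding names (-0.19) was -0.060 among regions with no exon of another gene of the strand, and that of shared regions (0.08) was 0.15 there and 0.11 without LOC names; the other region medians stayed within 1.5 times, and none changed sign. Counts of called regions in KO against WT with only noncoding names (92) were 16 at a log2 fold of at least 1, 59 without LOC names, 31 among regions with no exon of another gene of the strand and, in a choice made after seeing the data, 59 among those not beginning inside another gene; for shared regions (68) they were 17 at that fold and 35 with no other exon. In addback against KO those with only noncoding names (58) numbered 1 at that fold, 20 with no other exon and, in a choice made after seeing the data, 37 not beginning inside another gene, and shared regions (54) numbered 4 and 30. Those filters keep fewer regions by construction, and all kept the direction of the split for regions with only noncoding names. The split was weaker with no other exon, where 11 of 74 were higher and 20 lower in KO against WT in the authors' deposited table. That share called lower was near the 25.0% of all regions. In addback against KO 17 of 71 were higher and 3 lower there. Leaving out coding bases or repeated places, both chosen after seeing the data, kept the counts within 1.5 times.

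Host genes called in KO against WT (75) were 116 without a filter on low counts; the split turned with DESeq2's Wald test (90: 47 higher, 43 lower) and when KO and WT were fitted alone (42: 31 higher, 11 lower). In addback against KO (59) they were 90 without a filter, and 41 (9 higher, 32 lower) when fitted alone; those fits dropped most MIR-named hosts. In addback against WT (4) they were 10 with low-background factors, 9 with the replicate block, and 0 by edgeR when fitted alone (6 at an unadjusted p under 0.05; DESeq2 over all 9 libraries called 4). Leaving out each replicate gave 62 to 111, 40 to 95 and 1 to 5 in these 3 comparisons, with 95 without addback replicate 1, 1 without addback replicate 2 or WT replicate 3, and 2 without addback replicate 3. With the replicate block, KO against WT had 104 (48 higher, 56 lower) and addback against KO 82 (48 higher, 34 lower); same-numbered libraries did not deviate together there (correlations of -0.08 to 0.04), so they share only a number.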
